A study of Mus musculus with 22 samples.

Results

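Sites of MTF2 in wild-type mouse embryonic stem cells were set against the H3K27me3 that was still called in cells with a gene trap in Mtf2. The members were the 6357 regions of the wild-type MTF2 list, of 76045 regions in the 7 deposited lists, and they were compared with the 963 regions of the gene-trap H3K27me3 list. An MTF2 peak was called inside remaining H3K27me3 when it shared at least 1 bp with a gene-trap H3K27me3 region, and outside otherwise. The 6294 H3K27me3 regions of wild-type cells, called domains here, gave the outline within which loss and gaps were measured.

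Wild-type cells were E14 embryonic stem cells, and the gene-trap cells carried a trapping cassette in the coding sequence of Mtf2 on both alleles (Mtf2 GT/GT). Both were grown in serum with LIF. The series holds 22 samples in 12 groups, and 14 libraries, 2 per group, stand behind the 7 lists. Those of wild-type cells are for MTF2, EZH2, H3K27me3 and H3K4me3, and those of gene-trap cells for the same targets without MTF2. The other 8 libraries (an input, JARID2 in both genotypes, and MTF2 from mutants of Jarid2 or Eed) were not analysed here. The labels name neither the parental line of the gene-trap cells nor whether they are a clone, so genotype and line cannot be told apart. MTF2 was not analysed in the gene-trap cells, and its loss there was therefore not checked.

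Polycomb repressive complex 2 (PRC2) places methyl groups on lysine 27 of histone H3, and its catalytic subunit is EZH2. H3K27me3 covers silent developmental genes in embryonic stem cells, often beside H3K4me3, a mark of promoters. MTF2 is a Polycomb-like partner of PRC2 that binds CpG-rich DNA. The title of the series states that MTF2 recruits PRC2, and the comparison asks how the H3K27me3 called in the gene-trap cells lies relative to those binding sites.

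Each group has 1 list and the lists hold positions without heights or counts. Depth is therefore unknown, the spread between the libraries of a group could not be measured, and no test between genotypes was possible. Intervals are exact Clopper-Pearson 95% intervals over regions, and they cover counting error only. A region missing from a list is a region that was not called, which is not the same as the absence of the mark.

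The defining genes of embryonic stem cells had promoter H3K4me3 in both genotypes. Of 26 pluripotency factors, 26 had an H3K4me3 peak in wild-type cells and 26 in gene-trap cells. Of 21 fibroblast and extracellular matrix genes, which feeder cells would express, 13 had one in each genotype. Among 30 housekeeping genes, 29 had one in wild-type and 30 in gene-trap cells. The share over all protein-coding genes is not given here, so these counts do not establish the cell type.

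The following 4 sites show what was compared, and 200 bp of each are printed from GRCm38, plus strand. Capitals mark GCG on either strand (GCG or CGC, overlapping matches included), a CpG-containing triplet of the kind that Polycomb-like proteins bind. Stretches were taken at the centre of the region, or at the nearest place that no annotated UTR touches. The sites are an MTF2 peak wholly inside remaining H3K27me3 in the HoxA cluster (chr6:52229698-52229897, an annotated noncoding exon of Hoxa9) and a gap in H3K27me3 that lies wholly on MTF2 (chr5:28166527-28166726, coding exon of En2). The other two are an MTF2 peak in a domain with no remaining call (chr16:91226829-91227028, coding exon of Olig2) and a narrow MTF2 peak within the widest gene-trap H3K27me3 region (chr15:103002922-103003121, intron of Hoxc5 and Hoxc6).
Hoxa9 and Hoxa10 peak, inside: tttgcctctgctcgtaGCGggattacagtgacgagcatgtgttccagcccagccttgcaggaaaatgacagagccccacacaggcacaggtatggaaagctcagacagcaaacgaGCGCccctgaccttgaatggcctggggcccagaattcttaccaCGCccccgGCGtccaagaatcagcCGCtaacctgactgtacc
En2 gap, wholly on MTF2: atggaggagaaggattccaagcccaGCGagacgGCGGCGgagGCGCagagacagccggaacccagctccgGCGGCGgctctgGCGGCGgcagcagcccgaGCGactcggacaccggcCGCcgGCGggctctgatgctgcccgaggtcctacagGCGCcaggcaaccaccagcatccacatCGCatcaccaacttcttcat
Olig2 peak, domain lost: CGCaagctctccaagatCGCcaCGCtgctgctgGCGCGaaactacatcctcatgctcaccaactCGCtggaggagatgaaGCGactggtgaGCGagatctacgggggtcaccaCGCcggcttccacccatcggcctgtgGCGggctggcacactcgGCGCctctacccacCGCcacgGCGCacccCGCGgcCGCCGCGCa
Hoxc5 and Hoxc6 intronic peak, inside: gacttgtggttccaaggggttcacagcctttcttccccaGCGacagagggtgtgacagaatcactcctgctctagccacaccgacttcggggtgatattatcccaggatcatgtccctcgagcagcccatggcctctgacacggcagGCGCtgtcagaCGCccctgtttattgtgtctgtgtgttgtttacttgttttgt

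The 4 stretches hold 6, 15, 22 and 4 matches in this order. Over the central 200 bp of each region, GCG was present in 91.7% of MTF2 peaks inside remaining H3K27me3 (median 6 matches) and in 99.1% of those outside (median 13 matches). It was present in 97.4% of MTF2 peaks as a whole and in 84.7% of gaps. A match is a description of these letters and not a binding site.

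Most wild-type MTF2 peaks lay outside the H3K27me3 of the gene-trap cells. Of 6357 peaks, 1405 were inside (22.1%, interval 21.1 to 23.1). A further 4302 peaks (67.7%) lay in wild-type domains that had no gene-trap H3K27me3 call at all. In domains that kept a call elsewhere, 357 peaks (5.62%) lay outside it. The remaining 293 peaks (4.61%) touched neither a wild-type domain nor a gene-trap one. Counted over bases, gene-trap H3K27me3 covered 31.9% of MTF2 peaks.

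Inside peaks were mostly well inside. Of the 1405, 805 (57.3%) lay wholly within a gene-trap H3K27me3 region, 1183 were covered by at least 50%, and 81 touched 2 or more such regions. At the margin, MTF2 peaks near Ppp1r1b and Six2 shared 6 bp with remaining H3K27me3, and peaks near Gata3 and Cdx2 missed it by 3 and 11 bp. Outside peaks in kept domains were a median of 1305 bp from remaining H3K27me3 (quartiles 410 and 3555). Those in lost domains were a median of 925998 bp away, and 1 of the 4302 lay within 1 kb.

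Gene-trap EZH2 lay with remaining H3K27me3. An EZH2 call of the gene-trap cells touched 342 inside peaks (24.3%) and 16 outside peaks (0.323%), while wild-type EZH2 touched 98.4% and 92.4%. H3K4me3 of gene-trap cells touched 76.4% of inside and 96.3% of outside peaks, and that of wild-type cells 72.4% and 93.9%.

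MTF2 peaks inside remaining H3K27me3 were wider. Their median width was 1739 bp (quartiles 739 and 2951), against 749 bp (417 and 1279) for those outside. Within the outside classes the medians were 683 bp in kept domains, 798 bp in lost domains and 347 bp outside domains. When the peaks were split by width into 5 classes of equal size, the share inside was 15.3%, 9.91%, 11.9%, 19.0% and 54.4% from the narrowest to the widest class. The widest class held peaks of 1779 to 19222 bp. The share was lowest in the second class and far higher in the widest class than in the fourth. A wide peak offers more bases for an overlap, so the rule was also applied to the central 500 bp of each peak, which gave 15.3%, 9.83%, 11.1%, 16.4% and 46.8%.

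**Figure D1:**
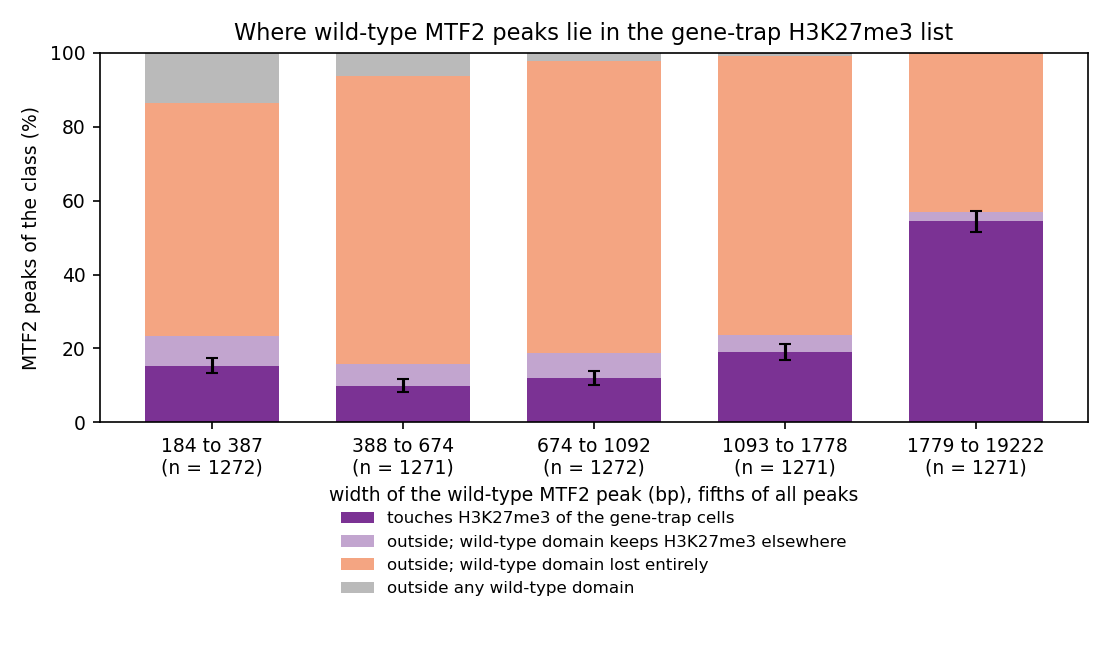
Share of wild-type MTF2 peaks (y axis, percent) in 5 classes of peak width (x axis, bp), split by where the peak lies relative to the H3K27me3 of the gene-trap cells and to wild-type domains. Black bars are exact 95% intervals of the inside share, which is 54.4% in the widest class and between 9.91% and 19.0% in the other 4.

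Away from promoters, a larger share of MTF2 peaks was inside. A promoter peak is one within 1 kb of a transcription start site (TSS) of a protein-coding gene, and the rest were called exon, intron or intergenic in that order. The share inside was 16.7% of promoter peaks, 25.8% of exonic, 38.3% of intronic and 32.8% of intergenic peaks. Seen from the other side, 662 inside peaks (47.1%) and 3298 outside peaks (66.6%) were at promoters. In each of the 5 width classes the promoter share was lower inside, from 10.8% against 56.1% in the narrowest to 67.9% against 86.2% in the widest. Inside peaks had a median of 4.4 CpG per 100 bp in their central 1 kb, and outside peaks 6.3.

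This order turned when domains with a single MTF2 peak were taken alone. Among peaks that were the only MTF2 peak of their wild-type domain, 265 were inside (7.65%) and 3200 outside. At promoters were 83.0% of the inside (interval 77.9 to 87.3) and 72.6% of the outside peaks (71.0 to 74.1), with median widths of 2304 and 872.5 bp and 7.5 and 6.7 CpG per 100 bp. The promoter share of all outside peaks also rose with width, from 56.1% in the narrowest class to 86.2% in the widest. Sole peaks were not split by width, so the part of width in the turned order was not tested. Among peaks that shared a domain with other MTF2 peaks, 1140 were inside and 1459 outside, and the promoter shares were 38.8% and 54.1%. Domains with several MTF2 peaks thus supplied 1140 of the 1405 inside peaks. The widest MTF2 peak of a domain was at a promoter in 77.0% of 647 kept domains and in 72.2% of 3662 lost ones, with median widths of 2606 and 898 bp. In kept domains that widest peak was itself inside in 590 cases (91.2%).

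**Figure D2:**
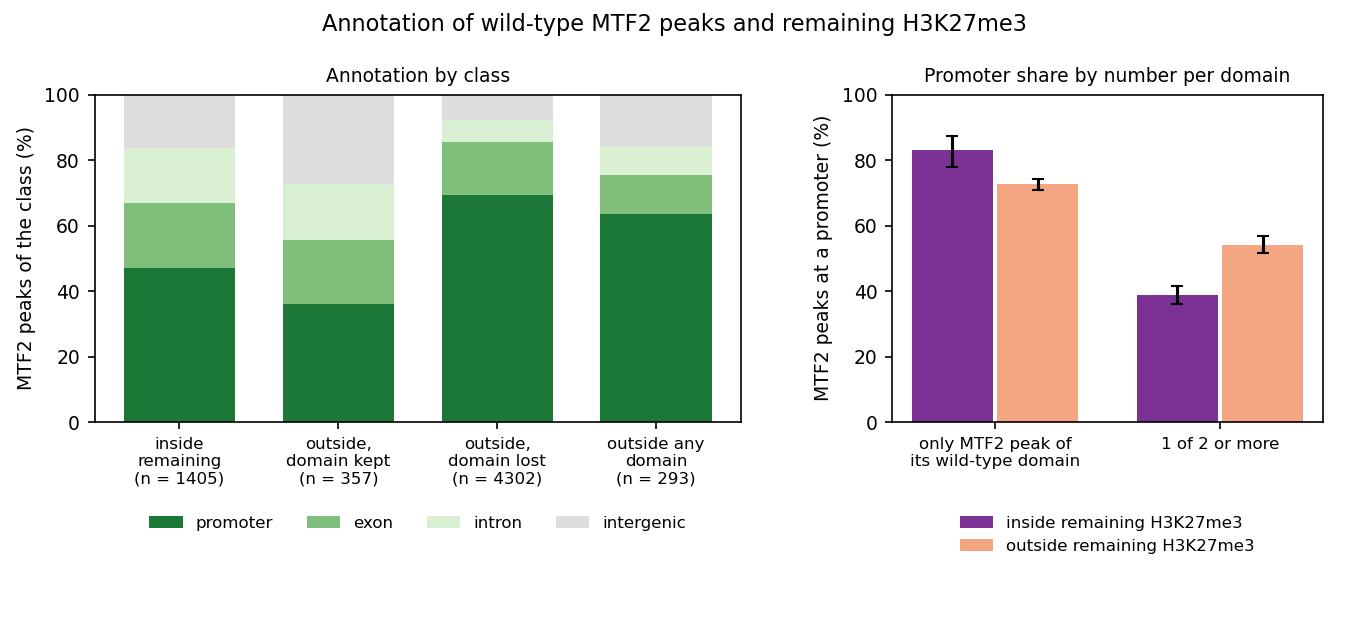
Left, annotation of MTF2 peaks (percent of the class, y axis) in the 4 classes of position on the x axis. Right, percent of MTF2 peaks at promoters inside and outside remaining H3K27me3, for peaks that are the only one of their wild-type domain and for the others, with exact 95% intervals; the inside bar is the higher of the pair on its left (83.0% and 72.6%) and the lower on its right (38.8% and 54.1%).

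The share of wild-type domains that kept H3K27me3 was higher where they held more MTF2 peaks when widths were pooled, but not in every class of width. Over all 6294 domains, 697 kept a call (11.1%). The share was 2.52% of 1985 domains without an MTF2 peak, 8.60% of 3465 with 1, 24.2% of 521 with 2 and 69.0% of 323 with 3 or more. Domains with more peaks were also wider, with a median of 2137 bp for those without a peak and 13987 bp for those with 3 or more. Within the widest class of domains (6071 to 133253 bp), 24.4% of domains without MTF2, 28.7% with 1 peak, 38.4% with 2 and 77.2% with 3 or more kept a call. The next class (4231 to 6070 bp) went otherwise for domains with the most peaks: 7 of 154 domains without MTF2, 84 of 947 with 1 peak, 17 of 126 with 2 and 0 of 32 with 3 or more kept a call. In the narrowest class (248 to 2062 bp), 12 of 933 domains without MTF2, 0 of 315 with 1 peak and 0 of 11 with 2 did. In the classes between (2063 to 3077 and 3079 to 4230 bp), 6 of 546 and 4 of 266 domains without MTF2 kept a call, as did 13 of 675 and 24 of 912 with 1 peak. With 2 peaks, 1 of 38 and 4 of 75 did, and 3 of 6 domains of 3079 to 4230 bp with 3 or more.

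Most regions of remaining H3K27me3 held MTF2 sites. Of 963 gene-trap regions, 785 touched an MTF2 peak (81.5%), compared with 68.5% of wild-type domains and 92.8% of the kept ones. Kept domains were wider than gene-trap regions, with medians of 8948 and 3166 bp. The 785 regions comprised 485 with 1 peak, 150 with 2, 118 with 3 to 5 and 32 with 6 or more. MTF2 peaks covered 52.9% of the bases of gene-trap H3K27me3, 25.8% of wild-type domains, 40.3% of kept and 20.1% of lost wild-type domains. Median width grew with the number of MTF2 peaks, from 1936 bp without a peak through 2544, 4544.5 and 8962.5 to 18387.5 bp with 6 or more. The share with gene-trap EZH2 was 5.06%, 14.2%, 34.7%, 55.9% and 87.5% in the same order. A wider region offers more bases for an EZH2 call to touch, and these shares were not split by width.

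The regions with the most MTF2 peaks were parts of Hox clusters, whose homeobox genes set position along the body axis. A region of 67885 bp over Hoxc6 to Hoxc11 (chr15:102945694-103013578) held 25 MTF2 peaks and 28 gene-trap EZH2 peaks. A region of 59179 bp from Evx2 through Hoxd3 (chr2:74656043-74715221) held 21 and 25, and a region of 52315 bp over Hoxb4 to Hoxb9 (chr11:96266108-96318422) held 15 and 19. Over the whole clusters, 31 of 35 MTF2 peaks of HoxA, 43 of 45 of HoxB, 37 of 39 of HoxC and 32 of 32 of HoxD were inside.

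The 178 gene-trap regions without MTF2 differed in place. Of these, 41.0% were intergenic and 12.4% touched wild-type EZH2, against 99.8% of the regions with 1 MTF2 peak. They include each of the 65 gene-trap regions that touched no wild-type domain. The widest measured 15679 bp (nearest gene Tmco5, 315284 bp away), 14775 bp (nearest Tcstv1) and 11930 bp (nearest Peg12).

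Within kept domains, the bases that stayed called were richer in MTF2 than the bases that did not. MTF2 covered 55.4% of remaining and 22.9% of lost bases, and the remaining bases had the higher share in 519 of 645 domains that held MTF2 and both kinds of base (80.5%). This held in 386 of 494 domains with 1 gene-trap region and in 133 of 151 with 2 or more. Edges of remaining H3K27me3 lay on MTF2 about as often as the bases of kept domains as a whole. Of 1737 gene-trap ends inside a wild-type domain, 736 (42.4%) fell within an MTF2 peak, and MTF2 covered 40.3% of the bases of kept domains. Of 12588 outer ends of all wild-type domains, 370 (2.94%) did, and of 1394 outer ends of the kept ones 39 (2.80%) did. H3K4me3 of the gene-trap cells covered 41.3% of the gene-trap ends inside a wild-type domain. It covered 15.5% of the outer ends of all wild-type domains and 7.60% of those of the kept ones.

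Fragmentation affected 154 wild-type domains, which is 22.1% of the 697 kept ones. A domain was called fragmented when at least 2 gene-trap H3K27me3 regions touched it, and a gap is the stretch between neighbouring ones. There were 120 domains with 2 such regions, 25 with 3, 6 with 4, 2 with 5 and 1 with 7. They held 202 gaps, with a median width of 1095.5 bp (quartiles 765 and 1759, range 197 to 8811). The fragmented domains were wide, with a median of 17775.5 bp against 7506 bp for the 543 kept domains with 1 gene-trap region.

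Over summed bases, gaps fell on MTF2 peaks about as densely as the remaining stretches did, and far more so than the lost outer ends. An MTF2 peak touched 171 of 202 gaps (84.7%, interval 78.9 to 89.3), and 81 gaps lay wholly on MTF2. Of the remaining stretches of the same domains, which are wider, 327 of 356 (91.9%) were touched. The midpoint lay on MTF2 in 136 gaps (67.3%, interval 60.4 to 73.7). Among the remaining stretches, 196 had their midpoint on MTF2 (55.1%, interval 49.7 to 60.3). Outside H3K27me3, MTF2 touched 60 of the 732 stretches between neighbouring wild-type domains that were no wider than the widest gap (8.20%). Over bases, MTF2 covered 57.6% of gaps, 56.8% of remaining stretches and 12.9% of the lost outer ends. Per domain the gap share was the higher one in 116 of 151 domains that held MTF2 (76.8%, interval 69.3 to 83.3), with medians of 89.2% in gaps and 59.6% in remaining stretches. The excess per domain was thus not seen over summed bases. With gaps of at least 1000 bp, the coverage was 53.2% in gaps and 55.2% in remaining stretches, and the gap share was higher in 62 of 92 domains.

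The count per domain also depended on how an MTF2 peak was drawn. With each peak cut to its central 500 bp, the gap share was higher in 67 of 150 domains and the remaining share in 83, while coverage was 13.6% and 12.1%. Peak centres fell at 2.89 per 10 kb in gaps (interval 2.33 to 3.54), 2.65 in remaining stretches (2.44 to 2.87) and 1.05 in outer ends. Of the 225 MTF2 peaks that touched a gap, 190 also reached into remaining H3K27me3 and 81 spanned the gap from one region to the next. Summed over their bases, the 4 fragmented Hox domains went the other way, with 32.2% of gap and 56.2% of remaining bases on MTF2, and the gap share was higher in 1 of the 4 (HoxA).

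H3K4me3 and start sites set gaps apart from the remaining stretches more than MTF2 did. H3K4me3 of gene-trap cells covered 61.3% of gap, 35.1% of remaining and 13.9% of outer bases, and wild-type H3K4me3 58.2%, 30.4% and 12.9%. The gap share of gene-trap H3K4me3 was the higher one in 127 of 150 domains. Protein-coding TSSs numbered 3.27 per 10 kb in gaps, 0.762 in remaining stretches and 0.220 in outer ends, and CpGs 4.83, 2.72 and 1.74 per 100 bp. A TSS lay in 81 of the 202 gaps. Wild-type EZH2 followed MTF2, with 62.4%, 65.3% and 15.4%. Gene-trap EZH2 covered 2.32% of gap and 7.92% of remaining bases. MTF2 and gene-trap H3K4me3 touched 160 gaps together, MTF2 alone 11, H3K4me3 alone 4 and neither 27, so the part of each in the gaps was not tested apart.

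**Figure D3:**
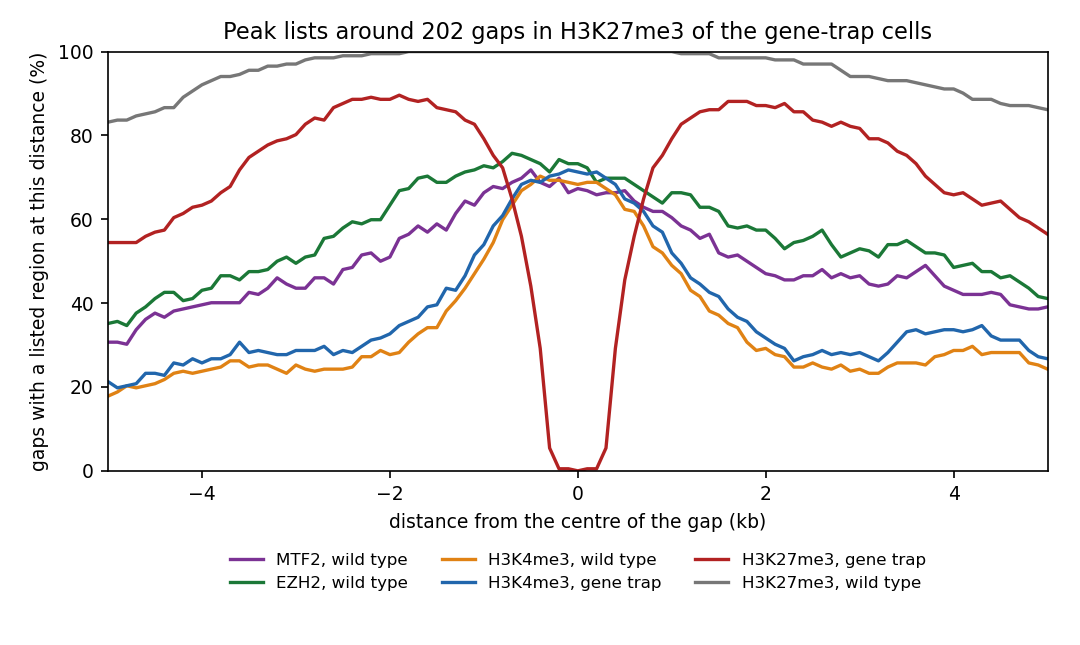
Percent of the 202 gaps (y axis) that have a region of each list at a given distance from the gap centre (x axis, kb, steps of 100 bp). MTF2 covers 67.3% of gap centres and 43.6% and 46.5% of positions 3000 bp to either side; gene-trap H3K4me3 covers 71.3% of centres and 28.7% and 28.2% at those distances.

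**Figure D4:**
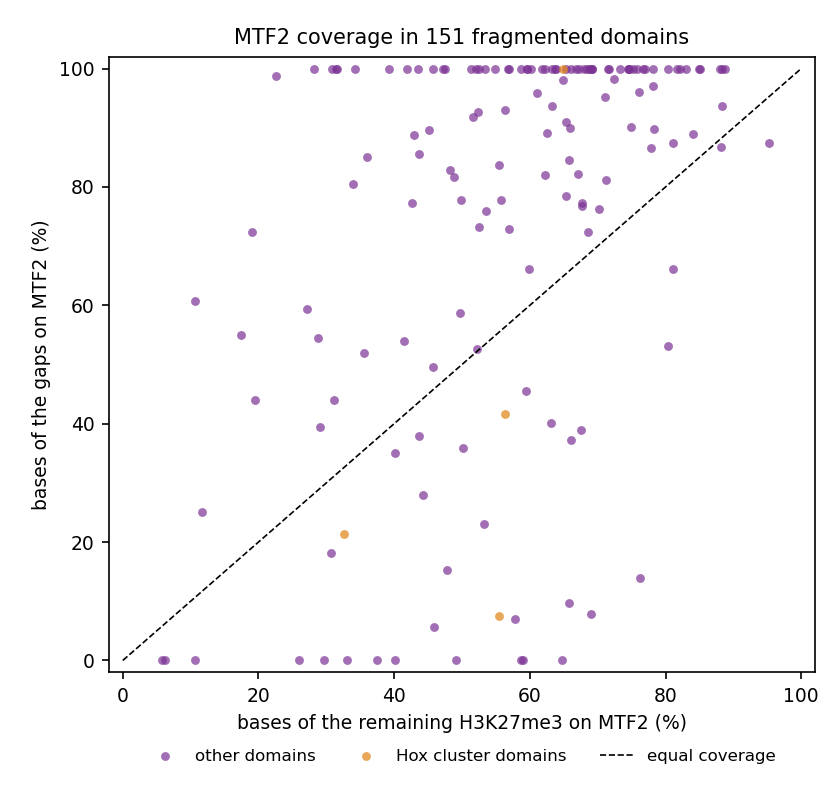
Percent of gap bases on MTF2 (y axis) against percent of remaining H3K27me3 bases on MTF2 (x axis) in the 151 fragmented domains with MTF2; each point is a domain and the dashed line marks equal coverage. In 116 domains the point lies above the line, and many of these have their gaps wholly on MTF2.

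The domains with the most gene-trap regions were those of Hox, Zic and COUP-TF genes, taking the widest where numbers were equal. The HoxB domain of 133253 bp held 7 gene-trap regions, with 41.7% of gap and 56.3% of remaining bases on MTF2. The HoxC domain of 108818 bp held 5, with 7.56% and 55.4%, and the HoxA domain of 118123 bp held 4, with 100% and 64.9%. At Zic1 and Zic4, a neighbouring pair of zinc finger genes of the neural tube, a domain of 39458 bp held 5 regions, with 54.0% of gap and 41.4% of remaining bases on MTF2. At Nr2f2, which encodes the nuclear receptor COUP-TFII, a domain of 52159 bp (chr7:70321546-70373704) held 4 regions, and its 3 gaps lay wholly on MTF2.

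The gaps wholly on MTF2 that were widest lay at start sites of developmental regulators. At En2, a homeobox gene of the midbrain and hindbrain, the TSS lay in a gap of 2208 bp (chr5:28165394-28167601) inside an MTF2 peak of 4895 bp, and gene-trap H3K4me3 covered that gap in full. A gap of 2182 bp lay at a TSS of Mecom, a zinc finger regulator of blood stem cells. A gap of 2007 bp lay at the shared promoter region of Rsrc1 and Shox2, the latter a homeobox gene of limb and heart. The coding sequence shown above comes from the En2 gap. The other gaps of the En2 domain measured 5804 and 953 bp, with 17.3% and 0% of their bases on MTF2. Over that whole domain the gap share was the lower one, with 35.8% of gap and 50.1% of remaining bases on MTF2.

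Wider gaps were covered in part. Gaps of 6942 bp at Pax5, 6380 bp at Meis1 and 5966 bp at Cryba2 held a TSS each and had 13.9%, 37.2% and 8.41% of their bases on MTF2. A gap of 5886 bp in an intron of Tbx15 had 21.6% and no H3K4me3.

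Gaps without MTF2 lay away from start sites in the 4 cases given here. They measured 7435 bp (nearest gene Dmbx1), 5593 bp (nearest Rhbg), 4368 bp (nearest Pax3) and 3721 bp (nearest Hoxc4). Gene-trap H3K4me3 touched the first for 366 bp and the other 3 not at all. Over the 31 gaps without MTF2 the median width was 1000 bp, against 1161 bp for the 171 with it.

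**Figure D5:**
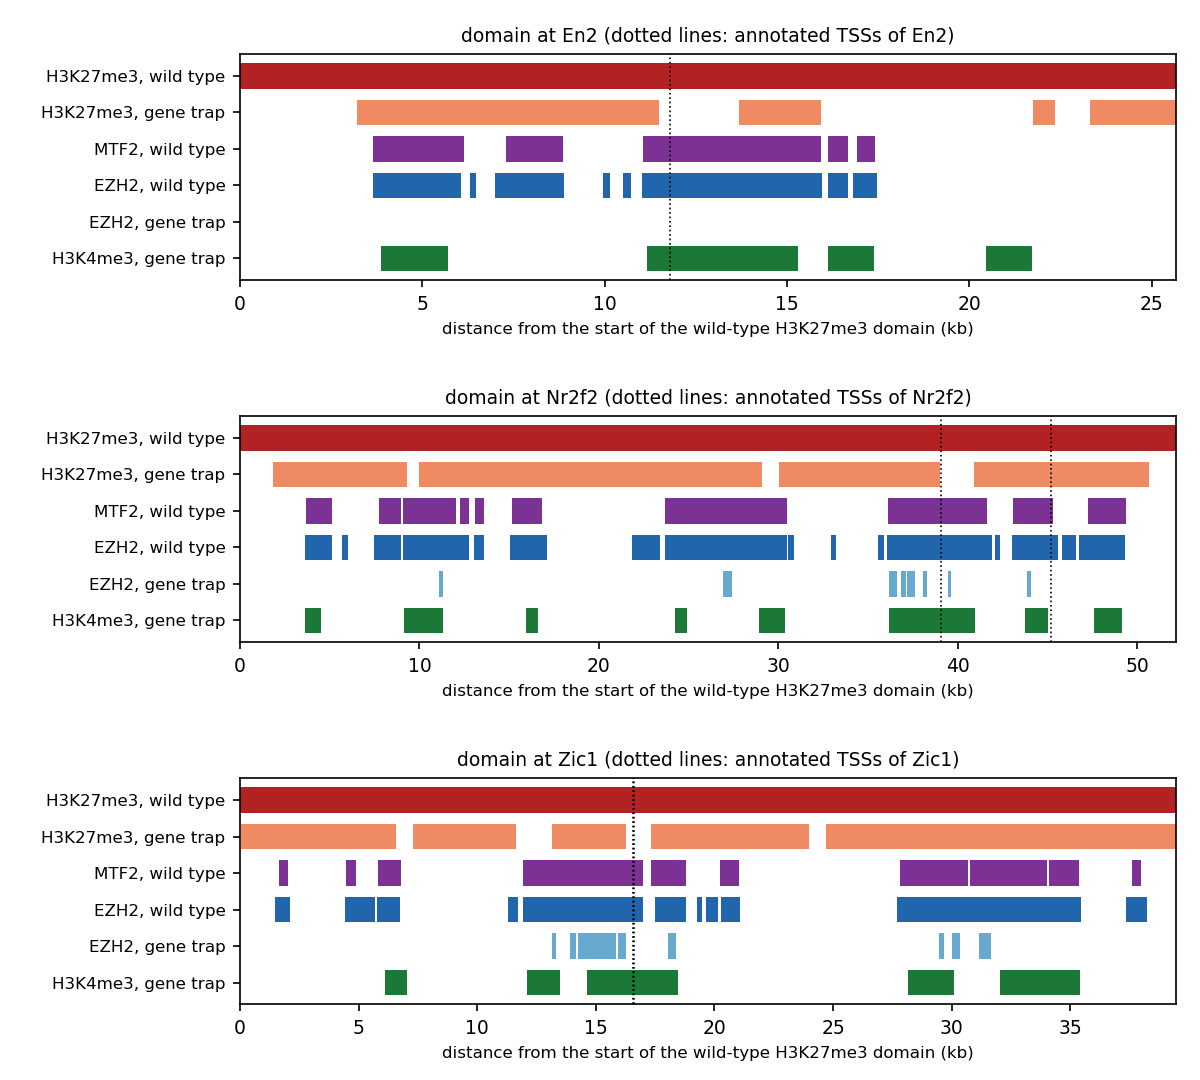
Regions of 6 lists in the wild-type H3K27me3 domains at En2, Nr2f2 and Zic1 (x axis, kb from the start of the domain; 1 row per list, filled where a region is listed; dotted lines, annotated TSSs). The gap at the TSS of En2 (2208 bp) lies within an MTF2 and an H3K4me3 region. The other gaps at En2 (5804 and 953 bp) lie on MTF2 for 17.3% and 0% of their bases. The 3 gaps at Nr2f2 lie wholly on MTF2, and 3 of the 4 gaps at Zic1 are touched by MTF2.

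Promoter MTF2 peaks of developmental regulators were inside remaining H3K27me3 in larger shares than promoter MTF2 peaks as a whole. Each gene was represented by its widest promoter MTF2 peak. Over 3484 protein-coding genes with such a peak, 554 were inside (15.9%). Shares below are for the members of a list that have a promoter MTF2 peak, and Hox and paired genes can share a peak.

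Patterning homeobox genes had the highest shares of the lists. The 41 Hox and Evx genes were inside in 41 cases, on 37 distinct peaks with a median width of 3970 bp, against 1113 bp over all genes with a promoter MTF2 peak. The widest was the 11778-bp peak at Hoxa9 and Hoxa10, wholly inside. Forebrain, eye and midbrain homeobox regulators were inside in 28 of 31 cases. At Six3, a regulator of forebrain and eye, 18516 of 19222 bp of MTF2 were covered (peak at chr17:85607452-85626673), and at Otx1 10314 of 11482 bp. Six6, a regulator of the eye, was outside (2598 bp, in a lost domain of 13582 bp).

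Regulators of the neural tube were inside in 22 of 28 cases. Zic2 (10599 of 12347 bp covered) and the LIM homeobox gene Lhx1 (8956 bp, wholly inside) had the widest inside peaks. Olig2, a bHLH regulator of motor neurons and oligodendrocytes, had an outside peak of 4757 bp (chr16:91224551-91229307) in a domain of 18776 bp with no remaining call. Zic5 had an outside peak of 3844 bp in the same domain as the inside peak of Zic2. Among neural bHLH and Sox genes 10 of 18 were inside, among them Sox14 (9696 bp, wholly inside) and Sox21 (4252 of 7830 bp). Sox3 (3501 bp) and Bhlhe22 (2981 bp) were outside, in domains with no call left.

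Mesoderm and heart regulators were inside in 25 of 34 cases and endoderm regulators in 11 of 15. Tbx2, a T-box gene of the heart, had 11918 of 13583 bp covered and Six2, a gene of kidney progenitors, a 10285-bp peak wholly inside. Tbx18 was outside at 2837 bp, in a domain that kept 2788 bp of H3K27me3. In the endoderm list, Gata6 (7438 of 8400 bp) and Nkx2-1, a gene of lung and thyroid (6531 bp, wholly inside), contrasted with Sox7 (2595 bp) and Mixl1 (1301 bp), both in domains with no call.

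Signalling genes had a share near that of neural bHLH and Sox genes (55% and 55.6%), and neuronal effector genes had a lower one. Signalling ligands and inhibitors were inside in 22 of 40 cases, with the Notch ligand Dll4 (6490 bp, wholly inside) and Fgf9 (3610 of 5407 bp) on that side and the TGF-beta family ligands Gdf7 (5694 bp) and Bmp2 (3437 bp) outside. Neuronal channels, receptors and transporters were inside in 10 of 34 cases (29.4%, interval 15.1 to 47.5), an interval that includes the share of all genes. Gad1, which makes the transmitter GABA (3710 of 4271 bp), and the potassium channel gene Kcnk9 (4047 bp, wholly inside) were inside. The acetylcholine transporter gene Slc18a3 (3035 bp) and Nrxn2 (2418 bp) were outside.

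Of the other lists, that of PRC1, the partner Polycomb complex, had a promoter MTF2 peak at 10 of 23 genes. Fibroblast and extracellular matrix genes had one in 7 of 21 cases and pluripotency factors in 3 of 26. Over all protein-coding genes, 3484 of 21924 had one. Of the 10 PRC1 genes with such a peak 4 were inside, with Cbx8 at 2578 of 2989 bp, while Bcor (2106 bp) and Yaf2 (2068 bp) were outside. Of 3 pluripotency factors, Esrrb was inside (2002 of 2366 bp) and Dnmt3b (861 bp) and Prdm14 (508 bp) outside. Of 7 fibroblast and extracellular matrix genes, Pdgfra was inside (4476 of 4600 bp), with Fbn1 (2561 bp) and Loxl1 (1642 bp) among the 6 outside. No housekeeping gene had such a peak, and among PRC2 genes 1 had one, the MTF2 relative Phf19 (1339 bp, outside).

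Median widths differed between lists, from 2473.5 bp for signalling genes to 4407 bp for neural tube regulators, with 1764.5 bp for neuronal genes, 1829 bp for PRC1, 936 bp for fibroblast genes and 861 bp for pluripotency factors, the last 2 below the median of all genes. In the widest class of MTF2 peaks, 455 of 960 genes were inside (47.4%), against 99 of 2524 with narrower peaks (3.92%). Within that class, 38 of 38 Hox genes, 27 of 29 forebrain, 22 of 26 neural tube, 23 of 27 mesoderm, 11 of 12 endoderm, 20 of 27 signalling, 10 of 15 neural bHLH and Sox and 10 of 17 neuronal genes were inside. The intervals of the last 2 (38.4 to 88.2 and 32.9 to 81.6) include the share of the class. The class spans 1779 to 19222 bp, so width was not held equal between the lists and all genes within it. Outside the lists, the widest inside peaks were those of Ebf3 (14351 bp, wholly inside), Dmrta2 (10131 of 11515 bp) and Pax9 (9446 of 10718 bp), all 3 of them transcription factor genes. The widest outside peaks were those of the zinc finger gene Zfp536 (5631 bp), the receptor gene Nrp2 (5410 bp) and Tchh (5245 bp), each in a domain with no remaining call.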

How the data were processed

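Chromatin immunoprecipitation with sequencing was measured, and the authors deposited lists of peaks as positions (chromosome with start and end, in bp), with no other value. MACS2 2.7, BWA 0.7.10-r789, CASAVA and the build mm10 (GRCm38) are named in the submitters' processing notes, without role or order; how the libraries of a group were combined, and the thresholds, are not given in the sources used here. Starts were counted from 0 in the lists, region ends lay within the GRCm38.p6 chromosome lengths, and positions are printed counted from 1.

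Overlaps, classes and gaps were computed with Python 3.11.15 and numpy 2.4.6 and were tested on simulated regions against a count per base. A minimum overlap of 1 bp was used, and genes came from the basic set of GENCODE M21 (21924 protein-coding genes). Intervals came from scipy 1.17.1. The depth of the libraries is unknown, and regions are not replicates.

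The members, the 13 gene lists and the alternatives were chosen with earlier results of these data known. Named genes followed a rule: per list with at least 3 promoter MTF2 peaks, the 2 widest inside and the 2 widest outside; outside the lists, the 3 widest of each, passing over predicted genes; the 5 domains with the most gene-trap regions; the 5 widest gaps with and without MTF2; the 3 gene-trap regions with the most MTF2 peaks and the 3 widest without; and the 4 Hox clusters. The 3 gaps wholly on MTF2 and the genes at the margin of the overlap rule were chosen after their values were seen. Alternatives changed the overlap rule, the promoter window, minimum widths, the joining of gene-trap regions, the part of the domain used and the Hox clusters. A few items chosen this way were left out of the text.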

Additional observations from a re-analysis of the deposited data

How the results depend on the processing

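No paired analysis was possible because each group has 1 list with no column per replicate, so neither a block nor leaving out a library could be run. The share of MTF2 peaks inside was 18.6% with at least 50% of the peak covered, 12.7% for whole peaks, 19.9% for central 500 bp, 25.4% for peaks of at least 500 bp and 20.3% without the Hox clusters. The log2 ratio of median widths was 0.98 for peaks of at least 500 bp (1.22 as reported). The promoter share inside minus outside was -12.4 points with a window of 2.5 kb and -5.93 with the TSS inside the peak (-19.5 as reported), and it reversed to 10.5 for sole MTF2 peaks, an alternative chosen after seeing the data. Gene-trap regions of at least 1000 bp held MTF2 in 84.2% of cases. Domains with the larger MTF2 share in gaps were 67.4% with gaps of at least 1000 bp and 44.7% with central 500 bp of MTF2 peaks. Gap minus remaining coverage, 0.87 points as reported, reversed to -2.01 (gaps of at least 1000 bp), -4.39 (bases away from the domain's ends) and -0.26 (gene-trap regions of at least 1000 bp). The causes were not tested. In 7 of 11 lists the interval lay above the share of all genes, also with at least 50% of the peak covered and with a window of 2.5 kb, and in 7 of 10 with the TSS inside the peak. The lists were chosen with earlier results known and their genes can share a peak, so this count is a description and not a test. Depth and height are unknown, so weak H3K27me3 cannot be told apart from none.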

Other observations

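Chromosome X held little remaining H3K27me3. Of 162 MTF2 peaks there, 1 was inside remaining H3K27me3 (0.617%, interval 0.0156 to 3.39), against 1404 of 6195 on the autosomes (22.7%). Median MTF2 widths were 757 and 863 bp. In the widest class of MTF2 peaks, 1 of 22 on X and 690 of 1249 on the autosomes were inside (4.55% and 55.2%). Of wild-type H3K27me3 domains, 2 of 115 on X and 692 of 6176 on the autosomes kept a call (1.74% and 11.2%). Genotype and line cannot be told apart here either.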
